A study of Mus musculus with 36 samples.

Results

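Apolipoproteins and the genes of chylomicron assembly were followed in mouse embryos carrying mutant caspase-8. The genes were Apoa1, Apoa4, Apob, Apoc3, Mttp, Fabp1, Fabp2, Cd36, Dgat1 and Mogat2, which were taken by name from a list and make up 10 of the 52636 genes in the count tables. RNA was sequenced in 36 libraries, from whole E18.5 intestines and from mouse embryonic fibroblasts (MEFs), in 12 groups of 3 biological replicates. The mice had a C57BL/6N background, and Cflar was deleted by editing zygotes. The D387A set of intestines held Mlkl-/- controls and Casp8 1xDA/1xDA embryos, which kept Mlkl. It also held Casp8 1xDA/1xDA embryos without Cflar and Mlkl (written DA Cflar Mlkl), and the same without Casp1 (DA Cflar Mlkl Casp1), without Casp1 and Ifnar1, or without Casp1 and Fadd. The 1xDA allele (D387A) encodes a caspase-8 with a blocked cleavage site, and Cflar encodes its partner cFLIP. In the C362A set, 4 groups were Mlkl-/- controls, Casp8 C362A/C362A Mlkl-/- with a catalytically dead caspase-8 (CA Mlkl), and the same genotype without Casp1 (CA Mlkl Casp1) or without Cflar (CA Cflar Mlkl). The MEFs were Mlkl-/- or DA Cflar Mlkl. All deletions were homozygous. MLKL, the executioner of necroptosis, was missing from every group except Casp8 1xDA/1xDA alone (DA), so that group differed from its controls at Mlkl as well as at Casp8. The alleles were carried in the germline and the whole intestine was sequenced, so no value belongs to 1 cell type, and MEFs are cultured cells. The comparisons ask how far the genes that package dietary fat differ between these genotypes, and whether removing caspase-1, IFNAR1 or FADD changes the difference.

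Absorptive enterocytes take up fatty acids and monoglycerides, rebuild them into triglycerides at the endoplasmic reticulum, and load the fat onto apolipoprotein B. The finished particle, the chylomicron, carries further apolipoproteins on its surface and leaves the cell for the lymph. The genes are switched on before birth, when the gut is prepared for fat-rich milk.

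Apoa1, Apoc3 and Apoa4 lie side by side on chromosome 9. On GRCm38 with GENCODE M21 gene models, Apoa1 spans chr9:46228580-46230466 on the plus strand, Apoc3 chr9:46232933-46235636 on the minus strand, and Apoa4 chr9:46240696-46243459 on the plus strand, all within 14.9 kb. The other genes lie apart, with Apob at chr12:7977648-8016835, Mttp at chr3:138089854-138144968, Fabp2 at chr3:122895072-122899506, Fabp1 at chr6:71199827-71205023, Cd36 at chr5:17781690-17888801, Dgat1 at chr15:76502015-76511953 and Mogat2 at chr7:99219084-99238619. Reads were counted over the exons of each gene. The genes that overlap Apoa4, Mttp, Fabp2 or Mogat2 had at most 4.79% of the reads of the gene they overlap, a value reached by Trmt10a at Mttp, and how the counting treated strand is not given in the sources used here.

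The 250 bases before their RefSeq start sites (GRCm38.p6) were searched on both strands for motifs named after regulators of enterocyte genes. RefSeq promoter entries were matched for 7 of the 10 genes, which did not include Apoc3, Dgat1 and Mogat2. The letters CAAAGTNCA, a HNF4 motif, occurred in Apoa4 and Fabp2, and in 1.19% of 32851 promoters. The direct repeat AGGNCA, any base, AGGNCA, which nuclear receptors bind, occurred in Fabp1 and in 0.338% of all promoters. Neither was found in Apoa1, Apob, Mttp or Cd36. The CDX letters TTTATNG occurred in Fabp1, Fabp2 and Apob and in 9.81% of all promoters. The HNF1 letters GTTAAT, any base, ATT (0.371% of all promoters) and the GATA letters AGATAA (9.99%) occurred in none of the 7. No match overlapped another. The RefSeq starts lie downstream of the GENCODE gene starts in all but Fabp2, by 29 bases in Apob, 50 in Apoa1, 52 in Fabp1, 148 in Apoa4, 1550 in Mttp and 52905 in Cd36, so the windows searched are those of the RefSeq starts alone. The promoters below are those with a HNF4 or direct repeat match, which the capitals mark, read 5′ to 3′ on the plus strand, which is the strand of each gene. They lie at chr6:71199629-71199878 (Fabp1), chr3:122894822-122895071 (Fabp2) and chr9:46240594-46240843 (Apoa4). The matches began 67, 137 and 182 bases before the start site in Fabp1, Fabp2 and Apoa4, and in Fabp1 and Fabp2 the motif was on the opposite strand.
Fabp1: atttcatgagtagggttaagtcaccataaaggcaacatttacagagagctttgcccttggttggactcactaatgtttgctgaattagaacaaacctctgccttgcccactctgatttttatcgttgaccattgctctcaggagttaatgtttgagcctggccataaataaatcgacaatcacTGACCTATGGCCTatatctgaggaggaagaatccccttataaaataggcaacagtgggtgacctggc
Fabp2: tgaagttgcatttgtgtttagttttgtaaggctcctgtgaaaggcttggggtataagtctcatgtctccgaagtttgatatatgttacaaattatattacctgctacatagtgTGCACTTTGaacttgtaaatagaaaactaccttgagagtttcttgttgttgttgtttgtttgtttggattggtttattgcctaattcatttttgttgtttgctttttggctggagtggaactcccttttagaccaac
Apoa4: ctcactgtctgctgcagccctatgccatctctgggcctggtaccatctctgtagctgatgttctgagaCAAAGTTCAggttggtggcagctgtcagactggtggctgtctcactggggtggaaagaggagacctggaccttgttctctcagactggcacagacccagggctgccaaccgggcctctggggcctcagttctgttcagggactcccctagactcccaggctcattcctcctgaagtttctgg
A match is a description of letters and says nothing about binding in these tissues.

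Levels are given as RPKM, reads scaled to exon length and to a library size set by TMM (trimmed mean of M values) within each set. In the Mlkl-/- intestines of the D387A set, Apoa4 had the highest mean RPKM of the 27303 genes with a read and Apoa1 the next highest. Fabp1 ranked 4, Fabp2 5 and Apoc3 12. Apob and the enzymes and transporters were lower, with Mttp at rank 66, Mogat2 at 142, Apob at 343, Dgat1 at 345 and Cd36 at 1429. The order in the C362A controls was the same for the 10 genes. Together the 10 genes took 4.76% to 5.27% of all reads on genes in the D387A controls and 4.01% to 6.25% in the C362A controls. In MEFs they took 0.0036% to 0.0049%.

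Between 17943524 and 27721024 reads per library fell on genes in the D387A set, 21757868 to 31052238 in the C362A set and 20927014 to 32307629 in MEFs. Casp1 was at most 0.212 CPM (reads scaled to library size) in the 12 libraries labelled as lacking it and at least 42.6 CPM in the other intestines, and Fadd and Ifnar1 were also lower in the libraries labelled as lacking them than in any other intestine. Mlkl and Cflar did not follow the labels in this way. The authors give the positions of deletions in Mlkl and Cflar for the D387A mice and in Cflar for the C362A mice. Which exons these removed was not examined. Mlkl was 10.9 to 13.9 CPM in DA, the group that kept it, 2.13 to 5.35 CPM in the controls of both sets and 6.27 to 62.6 CPM in the other intestines labelled Mlkl-/-. Cflar was 43.9 to 53.0 CPM in the D387A groups that kept it, 33.8 to 38.5 CPM in DA Cflar Mlkl and 42.4 to 59.4 CPM in the further 3 groups labelled as lacking it. In the C362A set Cflar was 39.7 to 44.4 CPM in CA Cflar Mlkl and 53.3 to 72.5 CPM in the other groups. The titles of the D387A set carry a number that is shared by the Mlkl-/- and DA Cflar Mlkl libraries, while the other 4 groups have a number each. Its meaning is not given in the sources used here, and a difference that goes with that number cannot be told apart from genotype in those 4 groups. The intestine label was met by high levels of epithelial genes, such as Epcam at 623, 590.2 and 538 RPKM in the 3 controls, against 0.167, 0.676 and 1.54 RPKM in Mlkl-/- MEFs. Alb, a hepatocyte gene, stood out in embryo 2 of the D387A controls, at 3.05, 135 and 1.62 RPKM in the 3 controls, and in embryo 2 of CA Cflar Mlkl, at 0.0993, 35.8 and 0.0180 RPKM.

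In DA Cflar Mlkl intestines, all 10 genes were lower than in Mlkl-/- intestines. The mean fell to between 0.550% (Fabp1) and 24.6% (Cd36) of the controls, and in each gene the highest mutant embryo lay below the lowest control. A gene was called when its log2 fold change passed 1 in size and its adjusted p in the quasi-likelihood test of edgeR, adjusted by Benjamini-Hochberg over the 18360 genes tested, lay under 0.05. By this rule 12.8% of all genes were called lower and 9.4% higher, and groups that did not overlap, with the mutants lower, were found in 33.8% of genes. The median log2 fold change was -3.20 over the 10 genes and -0.01 over all genes. In bulk tissue, fewer cells of a type and less RNA per cell cannot be told apart.

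The apolipoproteins fell by unequal amounts. Apob, the scaffold protein of the chylomicron, measured 166, 172 and 159 RPKM in the 3 controls and 34.8, 20.1 and 26.3 RPKM in the 3 mutants. The log2 fold change was -2.61 (SE 0.199, edgeR adjusted p = 6.24e-09). All 3 mutant embryos were well below the controls. Apoa1, which sits on nascent chylomicrons and is the main protein of high-density lipoprotein, measured 9354, 9147 and 7444 RPKM in controls and 1547, 770.2 and 1058 RPKM in mutants. On the log2 scale its fold change was -2.94 (SE 0.243, edgeR adjusted p = 1.72e-08). The first mutant embryo was the highest and the second the lowest, and the groups were far apart. Apoa4, a surface apolipoprotein made mostly by the small intestine, measured 14529.5, 15021 and 12719 RPKM in controls and 883, 335 and 653 RPKM in mutants. This was a log2 fold change of -4.50 (SE 0.288, edgeR adjusted p = 7.58e-10), a 22.6-fold lower level. The mutants ranked as for Apoa1. Apoc3, which slows the breakdown of triglyceride by lipoprotein lipase, measured 2011, 2011 and 1616 RPKM in controls and 50.7, 24.0 and 45.4 RPKM in mutants. Its log2 fold change was -5.55 (SE 0.286, edgeR adjusted p = 5.68e-11), a 46.9-fold lower level, which was the deepest of the 4 apolipoproteins.

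The neighbours on chromosome 9 did not keep their proportions. Within each library, the ratio of Apoa4 to Apoa1 RPKM was 1.55 to 1.71 in controls and 0.435 to 0.617 in DA Cflar Mlkl intestines. The ratio of Apoc3 to Apoa1 was 0.215 to 0.220 in controls and 0.0312 to 0.0429 in mutants. A ratio within a library does not depend on how the library is scaled, and in neither pair did the ranges of the groups overlap.

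Mttp encodes the microsomal transfer protein that loads lipid onto Apob as it is made. It measured 590.5, 577 and 527 RPKM in controls and 101, 78.1 and 70.7 RPKM in mutants. Its log2 fold change was -2.76 (SE 0.137, edgeR adjusted p = 3.71e-11), close to that of Apob.

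The intracellular fatty acid carriers were near the bottom of the order. Fabp1, the liver-type binding protein that the proximal gut shares with liver, measured 6619, 6916 and 6331 RPKM in controls. It measured 37.2, 37.7 and 34.3 RPKM in mutants, a 182-fold lower level with a log2 fold change of -7.51 (95% interval -7.90 to -7.11, edgeR adjusted p = 8.12e-14). The 3 mutant embryos were nearly equal to one another. Fabp2, the intestinal-type binding protein, measured 6579, 6418 and 6427 RPKM in controls and 133, 81.5 and 117 RPKM in mutants. The log2 fold change was -5.87 (SE 0.211, edgeR adjusted p = 1.81e-12), a 58.6-fold lower level. Both genes had about the same RPKM in controls, with Fabp1 at 0.985 to 1.08 of Fabp2, and the ratio was 0.280 to 0.462 in mutants.

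Genes of uptake and triglyceride rebuilding had log2 fold changes from -2.02 (Cd36) to -3.46 (Mogat2). Cd36, a membrane receptor for long-chain fatty acids that is also present on endothelial cells and macrophages, measured 53.5, 57.9 and 50.3 RPKM in controls and 16.2, 10.5 and 13.2 RPKM in mutants. On the log2 scale its fold change was -2.02 (SE 0.176, edgeR adjusted p = 3.19e-08), the smallest of the 10. Over 8 endothelial markers the summed RPKM was 124 to 137 in controls and 137 to 174 in mutants with 0 of 8 called, and over 8 macrophage markers 186 to 209 and 249 to 323, with 1 called higher and 1 lower. Their part in the Cd36 value was not tested. Mogat2, the acyltransferase that adds a fatty acid to monoglyceride, measured 352, 341 and 316 RPKM in controls and 35.4, 29.3 and 26.8 RPKM in mutants. This was a log2 fold change of -3.46 (SE 0.143, edgeR adjusted p = 5.73e-12). Dgat1, which completes the triglyceride, measured 171, 168 and 159 RPKM in controls and 30.7, 28.8 and 25.8 RPKM in mutants. Its log2 fold change was -2.54 (SE 0.105, edgeR adjusted p = 5.73e-12). For both acyltransferases the mutant embryos lay close together and far below the controls, as the plot of RPKM by embryo shows.

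**Figure D1:**
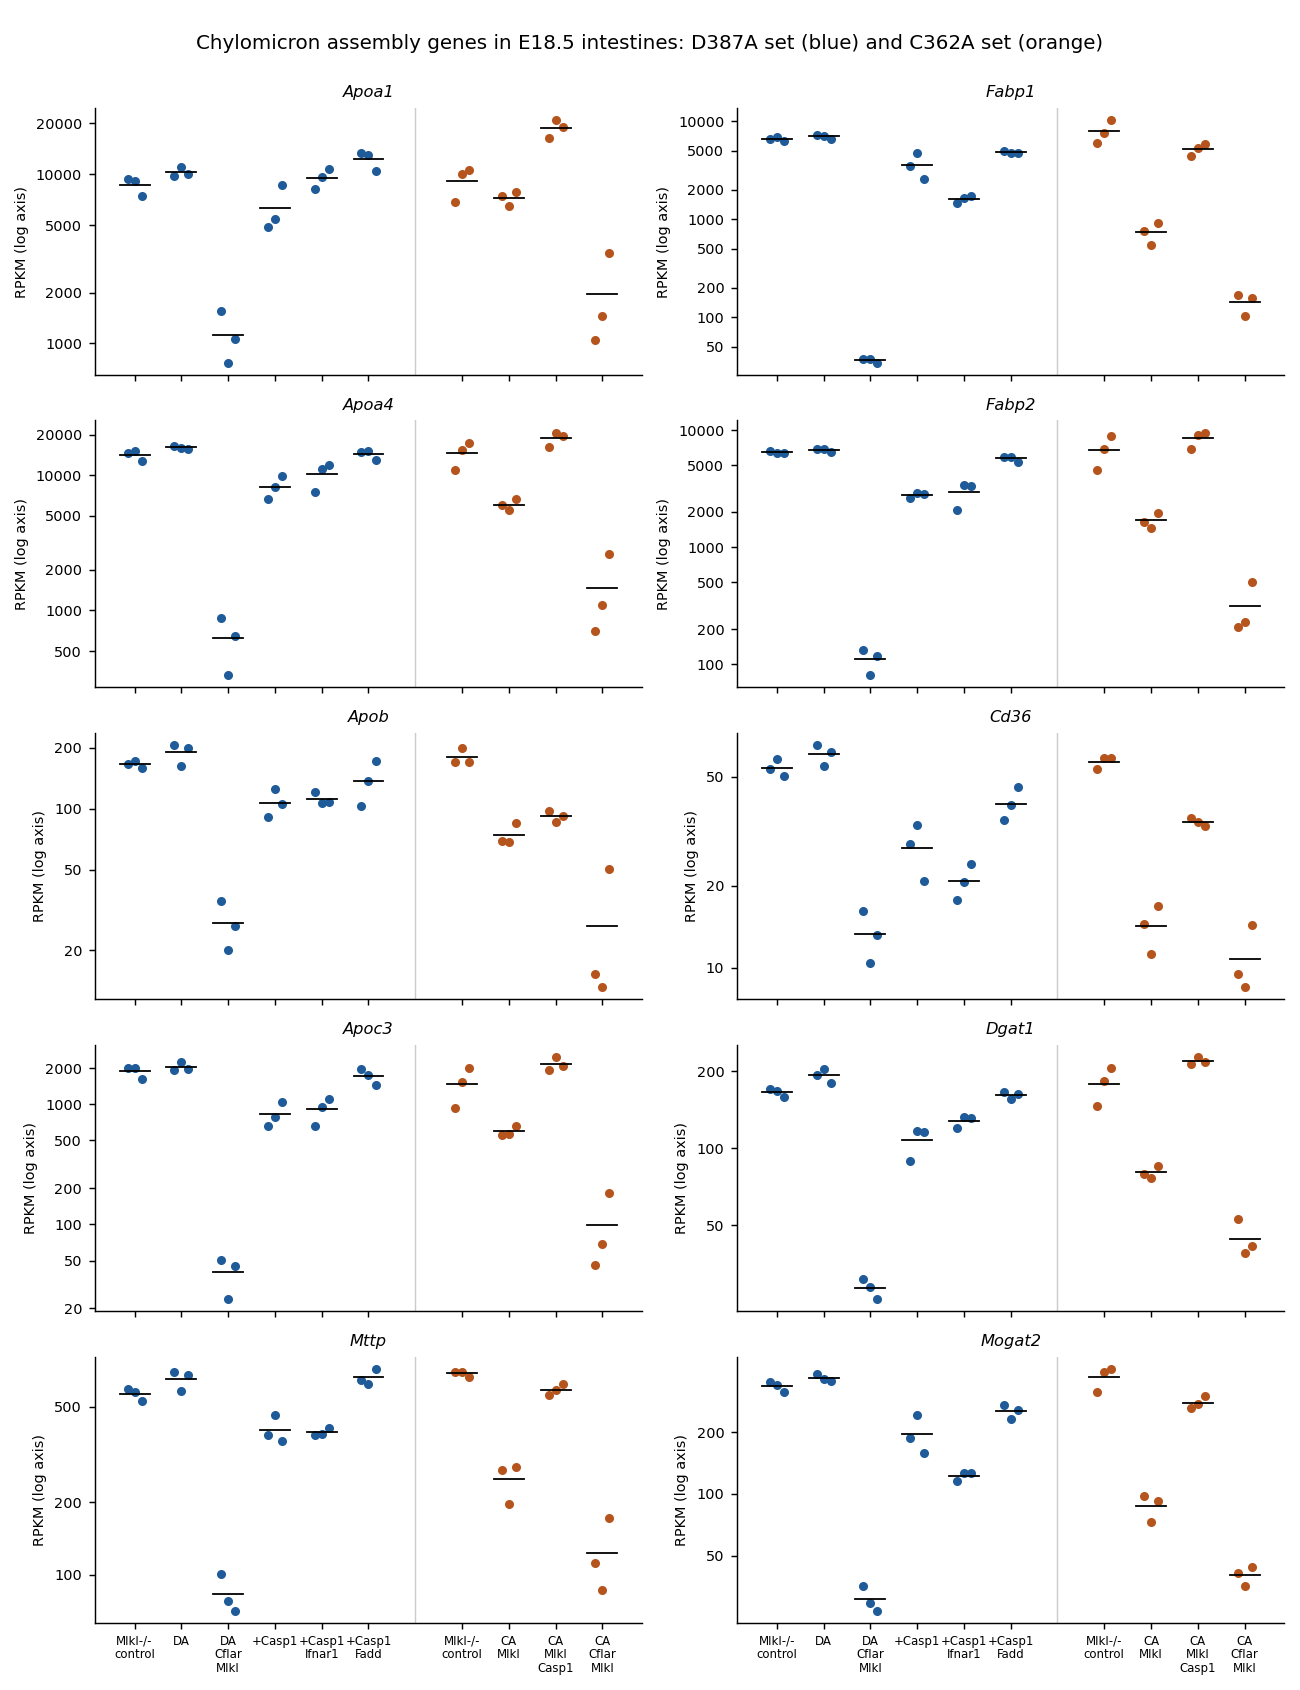
RPKM of the 10 genes on log axes in each E18.5 intestine of the D387A set (blue) and the C362A set (orange). Points are embryos and bars are means of 3. DA is Casp8 1xDA/1xDA and CA is Casp8 C362A/C362A. The labels from DA Cflar Mlkl onward name the alleles that were homozygous null, and a plus sign means added to DA Cflar Mlkl. In all 10 panels the DA Cflar Mlkl embryos sit below every control, for example at 34.3 to 37.7 RPKM against 6331 to 6916 RPKM for Fabp1.

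**Figure D2:**
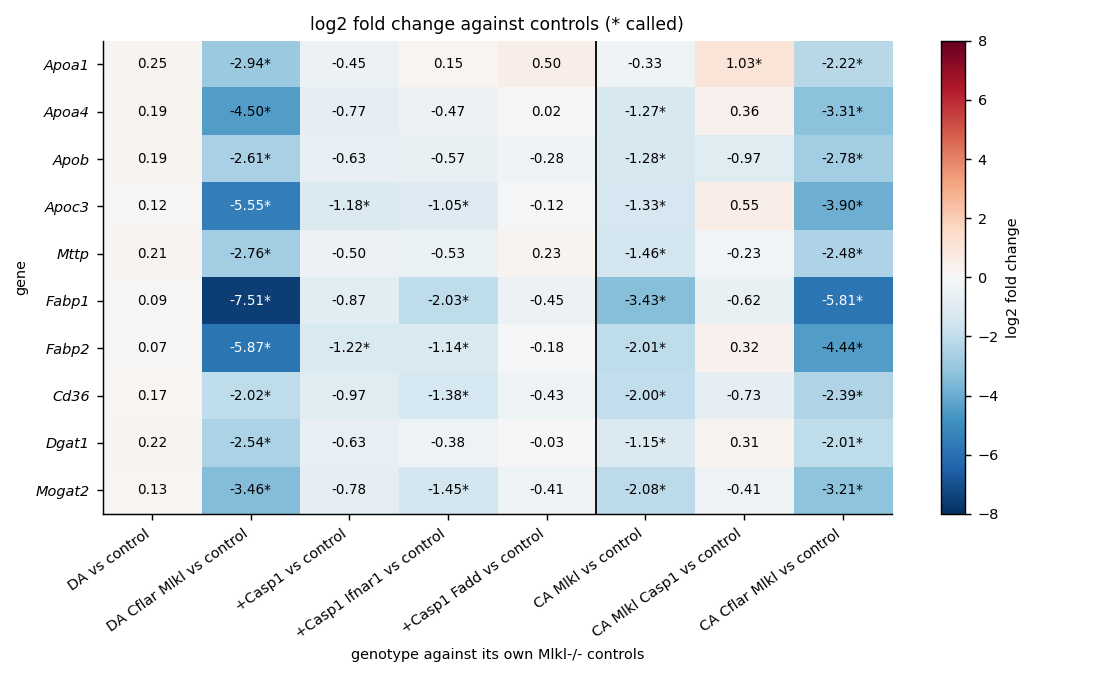
Log2 fold change of each gene in each mutant genotype against the Mlkl-/- controls of its set (D387A set left of the line, C362A set right). An asterisk marks a called gene (fold change past the threshold of 1 on the log2 scale, edgeR adjusted p under 0.05). All 10 genes are called lower in DA Cflar Mlkl and in CA Cflar Mlkl, and none in DA alone.

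In Casp8 1xDA/1xDA intestines, in which cFLIP was present, no gene of the 10 passed the tests against the controls. None of the 10 genes was called by edgeR, against 0.00545% of all genes, and limma-voom and DESeq2 called none either. Dgat1 alone had an unadjusted p under 0.05, as 5.02% of all genes did. Log2 fold changes lay between 0.07 (Fabp2, 95% interval -0.27 to 0.40) and 0.25 (Apoa1, -0.19 to 0.69), with edgeR adjusted p values of 0.966 or more. Fabp1, for example, measured 7321, 7164 and 6673 RPKM in the 3 embryos. For 4 genes, Apoa1, Apoa4, Dgat1 and Mogat2, the lowest mutant lay above the highest control, while 9.37% of all genes did so. The ratio of Apoc3 to Apoa1 was 0.196 to 0.204, against 0.215 to 0.220 in controls. Summed enterocyte markers were at 3075 to 3381 RPKM against 2536 to 2874. Markers of all epithelial cells were at 2551 to 2707 RPKM against 2182 to 2462. Fibroblast markers were at 614 to 722 RPKM against 749 to 830, and pancreatic acinar markers at 32.5 to 35.5 RPKM against 36.2 to 83.3. The part of these markers was not tested.

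Several of these transcripts mark the enterocyte itself, so the summed RPKM of marker lists was set beside them. Among 12 absorptive enterocyte markers that exclude the 10 genes, 11 were called lower and none higher in DA Cflar Mlkl intestines, with a summed RPKM of 647 to 858 against 2536 to 2874 in controls. The mean of that sum was 26.1% of the controls, while the summed RPKM of the 10 genes was 5.43%. No enterocyte marker was absent, but Lct, the lactase of the brush border, measured 0.958, 0.297 and 0.997 RPKM against 303, 291 and 248 RPKM. Among 12 genes of all epithelial cells, 4 were called higher and none lower, with a sum of 3006 to 3319 against 2182 to 2462 RPKM. The part of enterocyte number in the result was not tested. A set of 10 hepatocyte markers was also lower, with 7 of 10 called lower and a sum of 43.4 to 58.7 RPKM against 591 to 946. Afp, which the fetal gut also makes, measured 504, 548 and 402 RPKM in controls and 25.5, 13.2 and 23.8 RPKM in mutants, which was 57.9% to 69.9% of that sum in controls and 22.4% to 54.8% in mutants. Apoa1, Apob and Fabp1 are also genes of the liver. Smooth muscle markers were at 3762 to 4736 RPKM against 2682 to 2898 with none of 8 called, and fibroblast markers at 1039 to 1067 RPKM against 749 to 830.1 with 1 of 8 called higher. Pancreatic acinar markers were at 5.76 to 20.9 RPKM against 36.2 to 83.3, with 2 of 6 called lower, and markers of enteric neurons and glia at 46.3 to 51.5 RPKM against 57.6 to 63.9, with 1 of 8 called lower. The part of these markers in the result was not tested. Without the control embryo with the most Alb, Apoa1 was -2.89 and Fabp1 -7.47 on the log2 scale, and 10 of the 10 genes were called lower.

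**Figure D3:**
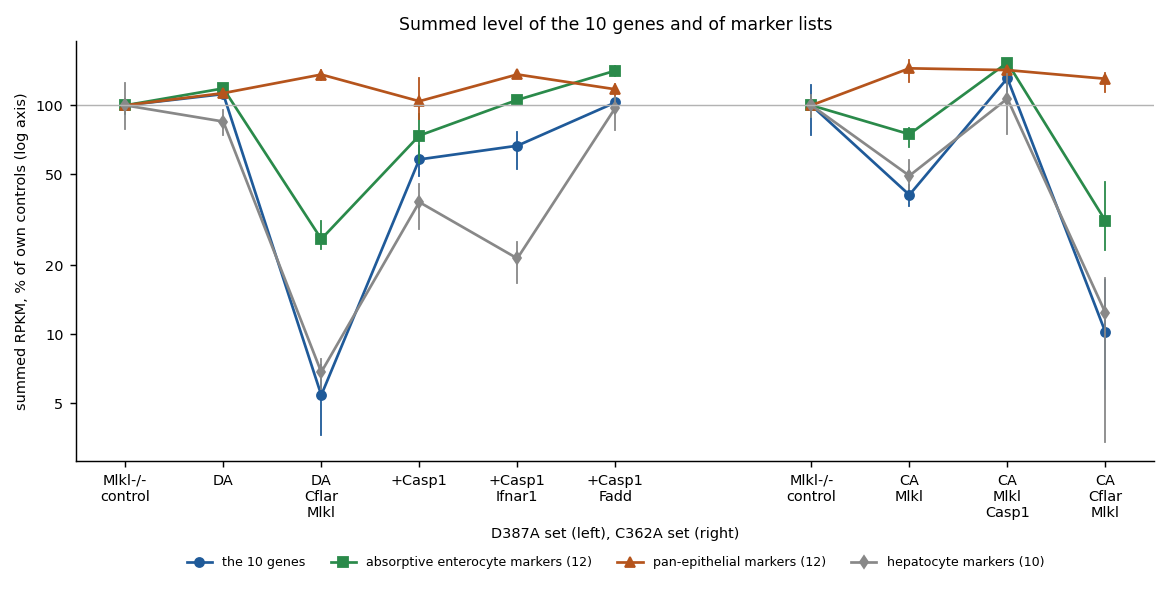
Summed RPKM of the 10 genes and of 3 marker lists in each genotype, as a percentage of the mean of the Mlkl-/- controls of the same set, on a log axis. Points are means of 3 embryos and vertical lines run from the lowest to the highest embryo. Group labels are as in the plot of RPKM by embryo. In DA Cflar Mlkl the 10 genes are at 5.43%, the absorptive enterocyte markers at 26.1% and the markers of all epithelial cells at 136% of the controls.

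The 10 genes were then scaled to these lists in place of all genes. With library sizes set by the markers of all epithelial cells, all 10 remained called lower in DA Cflar Mlkl intestines, from -2.38 (Cd36) to -7.87 (Fabp1) on the log2 scale. This scaling moved the median of all genes to -0.37 and the calls to 951 higher among 4676, and raw library totals gave 0.21 and 2547 higher among 4378. With library sizes set by the absorptive enterocyte markers, a choice made after seeing the data, 5 were called lower, and these were Apoa4, Apoc3, Fabp1, Fabp2 and Mogat2. Fabp1 was still -5.47 on this scale. Apoa1 (-0.94), Apob (-0.61), Mttp (-0.75), Dgat1 (-0.51) and Cd36 (-0.00) were no longer called. The enterocyte scaling moved the median log2 fold change of all genes from -0.01 to 2.03, and the calls from 1726 higher among 4078 to 15858 higher among 16268.

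**Figure D4:**
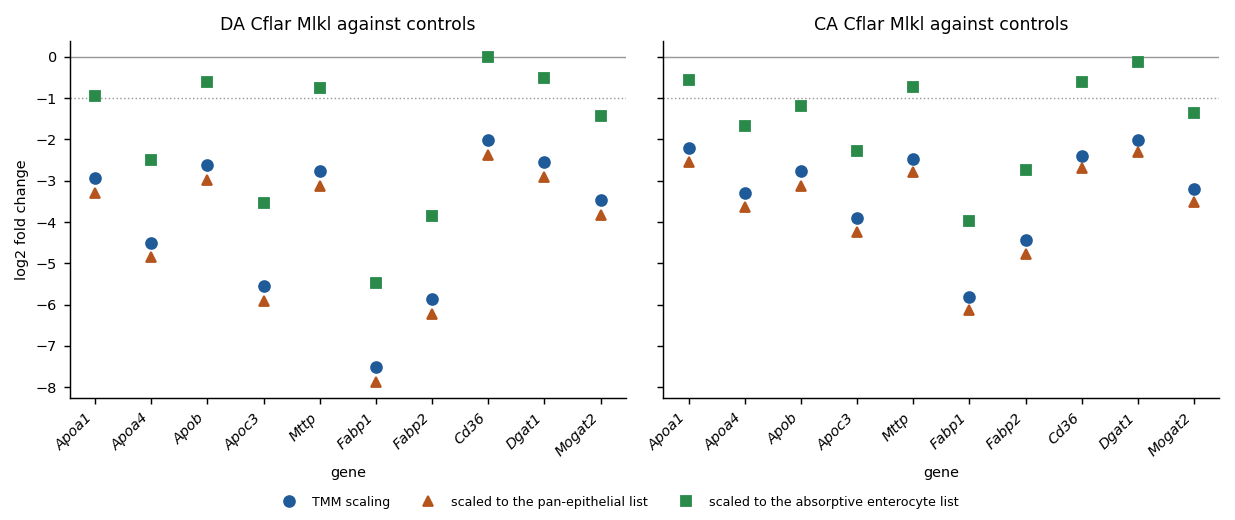
Log2 fold change of the 10 genes against the Mlkl-/- controls under 3 ways of scaling the libraries, for DA Cflar Mlkl (left) and CA Cflar Mlkl (right), with the abbreviations used in the plot of RPKM by embryo. Circles are the TMM scaling, triangles the scaling to 12 markers of all epithelial cells and squares the scaling to 12 absorptive enterocyte markers, and the dotted line is a log2 fold change of -1. Fabp1 stays below -3 in every case, while Cd36 in DA Cflar Mlkl goes from -2.02 to -0.00 when scaled to the enterocyte markers.

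Removing caspase-1 raised all 10 genes. In DA Cflar Mlkl Casp1 intestines, each gene was called higher than in DA Cflar Mlkl intestines, and in each the lowest embryo lay above the highest of the caspase-1-sufficient group, as for 26.9% of all genes. Of all genes, 8.88% were called higher, and the median log2 fold change was 2.59 over the 10 genes and 0.03 over all genes. The comparison uses the same DA Cflar Mlkl libraries as the one with the controls. Fabp1 measured 3521, 4757 and 2575 RPKM in the 3 caspase-1-deficient embryos, with a log2 fold change of 6.63 (SE 0.193, edgeR adjusted p = 6.84e-13), a 99.3-fold higher level. Fabp2 measured 2614, 2890.4 and 2840.2 RPKM, with a log2 fold change of 4.65 (SE 0.199, edgeR adjusted p = 3.74e-11). Among the carriers, the second embryo was the highest for Fabp1 and the embryos were close together for Fabp2. Apoc3 measured 664, 782 and 1042 RPKM, and its log2 fold change was 4.37 (SE 0.271, edgeR adjusted p = 1.87e-09). Apoa4 measured 6624, 8215 and 9870.3 RPKM and rose by 3.72 on the log2 scale (SE 0.278, edgeR adjusted p = 1.43e-08). The third embryo was the highest for both, as it was for Apoa1 at 4871, 5444 and 8697 RPKM. The remaining rises were 2.69 for Mogat2, 2.49 for Apoa1, 2.27 for Mttp, 1.98 for Apob and 1.92 for Dgat1 on the log2 scale. Cd36 rose least, to 28.3, 33.4 and 20.7 RPKM, at a log2 fold change of 1.05 (SE 0.172, edgeR adjusted p = 8.99e-05). Its call was lost without the second embryo of either group, with a lowest log2 fold change of 0.89. The enterocyte markers rose too, with 11 of 12 called higher and a summed RPKM of 73.8% of the controls. Hepatocyte markers had 5 of 10 called higher and none lower, with a sum of 217 to 341 RPKM against 43.4 to 58.7. Red cell (erythroid) markers had 5 of 5 called higher, at 1952, 992 and 339 RPKM in the 3 caspase-1-deficient embryos against 184 to 370.1. Smooth muscle markers had 2 of 8 called lower, at 2418 to 2623 RPKM against 3762 to 4736, and fibroblast markers 2 of 8, at 780.2 to 902 RPKM against 1039 to 1067. The part of these markers in the rise was not tested. The third caspase-1-deficient embryo stood apart from the other two, with the fewest erythroid transcripts, macrophage markers at 359 RPKM against 214 and 208, and Mlkl at 46.1 CPM against 6.27 and 7.46. Without it 10 of the 10 genes were called higher, with Fabp1 at 6.83 on the log2 scale, and without the first embryo likewise, with Fabp1 at 6.65. With library sizes set by the enterocyte markers, 5 of the 10 genes were called higher, and Cd36 turned to -0.44.

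The rise did not reach control levels for every gene. Against Mlkl-/- intestines, Apoc3 (log2 fold change -1.18, SE 0.237, edgeR adjusted p = 0.00224) and Fabp2 (-1.22, SE 0.173, adjusted p = 0.000160) were still called lower, while 2.18% of all genes were. Both lay below every control in all 3 embryos, as 9 of the 10 genes and 18.7% of all genes did. Another 7 genes, from -0.50 (Mttp) to -0.97 (Cd36), passed the adjusted p but not the fold threshold, and 21.4% of all genes passed that p. Apoa1 did not, at -0.45 (95% interval -0.89 to -0.00, edgeR adjusted p = 0.175), and its embryo 3 lay within the control range. Fabp1 and Cd36 were also called lower without the second caspase-1-deficient embryo, at -1.12 and -1.13, and Cd36 also without the third control. Under the scaling to enterocyte markers, the calls for Apoc3 (-0.71) and Fabp2 (-0.72) were lost. Hepatocyte markers were at 217 to 341 RPKM against 591 to 946 in controls, with 7 of 10 called lower, and erythroid markers at 339 to 1952 RPKM against 233 to 437, with 3 of 5 called higher. Enterocyte markers were at 1545 to 2522 RPKM against 2536 to 2874, with 2 of 12 called lower, and pancreatic acinar markers at 7.89 to 9.74 RPKM against 36.2 to 83.3, with 2 of 6 called lower. The sums of endothelial markers (higher) and smooth muscle markers (lower) did not overlap the controls either, with none called. What part these markers had in the result was not tested.

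Fabp1 was lower where IFNAR1, the type I interferon receptor chain, was missing on top of caspase-1 than in DA Cflar Mlkl Casp1 intestines. Its mean of 1616 RPKM was still above the 36.4 RPKM of DA Cflar Mlkl intestines. DA Cflar Mlkl Casp1 Ifnar1 intestines held 1467, 1652 and 1731 RPKM of Fabp1, below all 3 caspase-1-deficient embryos that kept Ifnar1 and Fadd. The log2 fold change for Ifnar1 loss was -1.16 (SE 0.152, edgeR adjusted p = 0.000203), and 1 of the 10 genes was called in this comparison, in which 2.03% of all genes were called lower. Without the second caspase-1-deficient embryo, which was the highest, it fell short of the threshold at -0.92. Hepatocyte markers, of a tissue that shares Fabp1, were lower too, at 126 to 189.7 RPKM against 217 to 341, with 3 of 10 called lower and none higher. Enterocyte markers were at 2834 to 2985 RPKM against 1545 to 2522, with 2 of 12 called higher and 1 lower, and markers of all epithelial cells at 3129 to 3222 RPKM against 2019 to 3057, with none of 12 called. Erythroid markers had 5 of 5 called lower. Pancreatic acinar markers were at 63.7 to 149 RPKM against 7.89 to 9.74, with 5 of 6 called higher. The sums were lower without overlap, but with none called, for fibroblast markers (662 to 689 against 780.2 to 902 RPKM), markers of enteric neurons and glia (38.7 to 40.03 against 50.1 to 64.9 RPKM) and endothelial markers (119 to 136 against 146 to 162 RPKM). The part of these markers in the Fabp1 value was not tested. Mogat2 was lower as well, at 115, 126 and 127 RPKM against 188, 243 and 158 RPKM. Its log2 fold change of -0.68 (SE 0.130, edgeR adjusted p = 0.00156) passed the adjusted p alone, as did 30.6% of all genes. Mogat2 was called, at -1.14 and -1.19, with library sizes set by the markers of all epithelial cells and by the enterocyte markers. The other 8 genes had log2 fold changes from -0.41 (Cd36, 95% interval -0.74 to -0.07) to 0.60 (Apoa1, 0.15 to 1.04), with edgeR adjusted p values from 0.0557 (Apoa1) upward.

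Against Mlkl-/- controls, 5 of the 10 genes were called lower in DA Cflar Mlkl Casp1 Ifnar1 intestines, against 5.64% of all genes. They were Fabp1 (-2.03), Mogat2 (-1.45), Cd36 (-1.38), Fabp2 (-1.14) and Apoc3 (-1.05) on the log2 scale. The calls for Apoc3 (-0.87) and Fabp2 (-0.94) were lost without embryo 1 of the mutant group. By adjusted p alone 8 genes passed, against 48.3% of all genes, and 9 genes lay below every control, against 28.5%. Apoa1 stood apart, at 8227, 9684 and 10806 RPKM and a log2 fold change of 0.15 (95% interval -0.30 to 0.59, edgeR adjusted p = 0.622), with embryo 1 inside the control range and the other two above it. The absorptive enterocyte markers summed to 106% of the controls in this genotype, with 1 of 12 called higher and 1 lower. Hepatocyte markers were at 126 to 189.7 RPKM against 591 to 946 in controls, with 8 of 10 called lower, and erythroid markers at 115 to 227 RPKM against 233 to 437, with 3 of 5 called lower. Sums that were higher without overlap were those of all epithelial cells, with 1 of 12 called higher, and of macrophages, with 2 of 8 called higher. Those that were lower were of smooth muscle and fibroblasts, with none called, and of enteric neurons and glia, with 1 of 8 called lower. The part of these markers in the result was not tested.

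With both caspase-1 and FADD removed, none of the 10 genes was called against the controls by edgeR, against 3.78% of all genes in either direction. FADD is the adaptor that brings caspase-8 into its complexes. Fabp1 measured 5013, 4791 and 4700.1 RPKM, a log2 fold change of -0.45 (SE 0.150, edgeR adjusted p = 0.0439), and all 3 embryos were below the controls. Mogat2 was -0.41 (SE 0.129, adjusted p = 0.0370), and these 2 genes alone passed the adjusted p, as did 18.4% of all genes. By unadjusted p under 0.05, 4 of the 10 genes and 31.1% of all genes passed, and limma-voom and DESeq2 called none of the 10. The embryos lay below every control for 4 genes (19.4% of all genes) and above for 2 (18.6%). Apoa4 was close to its control level, at 14851, 15028 and 13050.4 RPKM and a log2 fold change of 0.02 (95% interval -0.47 to 0.51). Apoa1 was above it in all 3 embryos, at 13387, 13001 and 10408 RPKM and 0.50 (0.06 to 0.95, edgeR adjusted p = 0.138). The median over the 10 genes was -0.15. Enterocyte markers were at 3705 to 4102 RPKM against 2536 to 2874 in controls, with 2 of 12 called higher. The sums of all epithelial and macrophage markers were also higher without overlap and those of smooth muscle, fibroblasts and enteric neurons and glia lower, with 1 gene of the last list called lower and none of the others. What part these markers had was not tested.

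Compared with the caspase-1-deficient embryos that kept FADD, Apoc3 rose by 1.06 (SE 0.236, edgeR adjusted p = 0.00518) and Fabp2 by 1.04 (SE 0.172, adjusted p = 0.000581) on the log2 scale, while 2.56% of all genes were called higher. Apoc3 measured 1979, 1764 and 1453 RPKM without FADD and Fabp2 5946, 5945 and 5304 RPKM, and neither group overlapped the one with FADD. All 10 fold changes were above 0, with 7 passing the adjusted p against 17.9% of all genes. The groups did not overlap for 7 genes, and 14.9% of all genes were higher in this way. Both calls were just past the fold threshold. With raw library totals both were lost, at 0.88 (Apoc3) and 0.85 (Fabp2), as they were with library sizes set by the markers of all epithelial cells, at 0.83 and 0.77, and by the enterocyte markers, at 0.13 and 0.07. Apoc3 was 0.95 without embryo 1 of the FADD-deficient group, and both calls were lost without embryo 1 of the group that kept FADD, at 0.92 for Apoc3. Apoa1 was called without the third embryo of either group, at up to 1.25. This comparison and the one with the controls share the FADD-deficient libraries. The enterocyte markers summed to 142% of the controls without FADD and 73.8% with it, and 4 of 12 were called higher. Hepatocyte markers were at 587 to 822 RPKM without FADD and 217 to 341 RPKM with it, with 2 of 10 called higher, and 4 of 5 erythroid markers were called lower. Sums of endothelial and fibroblast markers were lower without overlap, with none called, and those of pancreatic acinar markers higher, with 1 of 6 called higher. The part of these markers in the rise was not tested.

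Catalytically dead caspase-8 was examined in the second set. In CA Mlkl intestines, 9 of the 10 genes were called lower than in their own Mlkl-/- controls, against 7.55% of 19408 genes. The median log2 fold changes were -1.39 for the 10 genes and 0.02 for all genes. Fabp1 was again the lowest, at 764, 542 and 918 RPKM against 6042, 7696 and 10229 RPKM, a log2 fold change of -3.43 (SE 0.285, edgeR adjusted p = 2.69e-07). Mogat2 measured 97.5, 72.9 and 92.6 RPKM against 315, 392 and 408 RPKM, at -2.08 (SE 0.155, adjusted p = 8.48e-08). The groups were separate for both, as for 9 of the 10 genes and 25.1% of all genes. Fabp2 (-2.01), Cd36 (-2.00), Mttp (-1.46), Apoc3 (-1.33), Apob (-1.28), Apoa4 (-1.27) and Dgat1 (-1.15) followed on the log2 scale. Apoa1 overlapped the controls, at 7432, 6535 and 7883 RPKM against 6824, 10079.8 and 10558 RPKM. Its log2 fold change was -0.33 (95% interval -1.06 to 0.40, edgeR adjusted p = 0.508). The call for Apoa4 was lost without any 1 of the CA Mlkl embryos or control 2 or 3 (adjusted p up to 0.0641). That for Apoc3 was lost without CA Mlkl embryo 1 or 2 or control 3 (adjusted p up to 0.0588). The enterocyte markers summed to 1934 to 2345 RPKM against 2644 to 3204 in controls, with 5 of 12 called lower, and the hepatocyte markers to 343 to 456 RPKM against 706 to 879.8, with 4 of 10 called lower. The markers of all epithelial cells were at 2867 to 3579 RPKM against 2100.2 to 2386, with 1 of 12 called higher. Macrophage and monocyte markers were at 364 to 396 RPKM against 159 to 190.04, with 4 of 8 called higher and 1 lower. Erythroid markers were at 134 to 197 RPKM against 198 to 533, with 2 of 5 called lower. What part these markers had in the result was not tested. With library sizes set by the enterocyte markers, 4 of the 9 calls remained, for Fabp1, Fabp2, Cd36 and Mogat2. This scaling shifts all genes, with Apoa4 going from -1.27 to -0.77, and the share of all genes called under it is not given here. The ratio of Apoa4 to Apoa1 RPKM was 0.809 to 0.850, below the 1.53 to 1.65 of the controls.

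Without cFLIP as well, all 10 genes were called lower than the controls, against 11.2% of all genes, and none overlapped them, against 26.7%, with a median of -2.99 over the 10 genes. In CA Cflar Mlkl intestines Fabp1 measured 166, 102 and 157 RPKM, a log2 fold change of -5.81 (SE 0.319, edgeR adjusted p = 6.12e-09). Fabp2 measured 209, 229 and 505 RPKM, at -4.44 (SE 0.390, adjusted p = 3.63e-07), and Apoc3 45.6, 69.0 and 184 RPKM, at -3.90 (SE 0.441, adjusted p = 4.41e-06). The third embryo was the highest of the group for Apoa1, Apoa4, Apob, Apoc3, Mttp, Fabp2, Cd36 and Mogat2. Apob shows it most, at 15.2, 13.2 and 50.3 RPKM against 169, 199 and 171 RPKM in controls, and the third embryo was still well below them. Without it all 10 genes were still called, with log2 fold changes of -4.70 for Apoc3, -4.03 for Apoa4, -3.67 for Apob (from -2.78) and -2.88 for Apoa1. The enterocyte markers summed to 685 to 1365 RPKM against 2644 to 3204, with 8 of 12 called lower, and the hepatocyte markers to 26.9 to 139.8 RPKM against 706 to 879.8, with 5 of 10 called lower and 1 higher. Smooth muscle markers were at 3335 to 4129 RPKM against 1386 to 2205, with 2 of 8 called higher, and macrophage markers at 291 to 372 RPKM against 159 to 190.04, with 4 of 8 called higher and 2 lower. The markers of all epithelial cells were at 2592 to 3149 RPKM against 2100.2 to 2386, with 2 of 12 called higher, and endothelial markers at 129 to 147 RPKM against 115 to 127, with none called. Pancreatic acinar markers overlapped the controls, at 18.6 to 217 RPKM against 14.3 to 42.8, with 4 of 6 called higher. Their part in the result was not tested. With library sizes set by the enterocyte markers, 6 of the 10 genes were called lower, and Apoa1, Mttp, Cd36 and Dgat1 were not.

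Compared directly with CA Mlkl intestines, 8 of the 10 genes were called lower in CA Cflar Mlkl intestines, against 4.62% of all genes. Apoc3 (-2.58), Fabp2 (-2.43), Fabp1 (-2.39), Apoa4 (-2.04), Apoa1 (-1.89), Apob (-1.49), Mogat2 (-1.13) and Mttp (-1.02) were called on the log2 scale. Dgat1 was -0.86 (edgeR adjusted p = 0.00119), short of the fold threshold but past it without embryo 1 of the cFLIP-deficient group. Cd36 overlapped between the groups, at 9.51, 8.54 and 14.4 RPKM without cFLIP and 14.5, 11.2 and 16.9 RPKM with it, and -0.40 (95% interval -0.74 to -0.05, edgeR adjusted p = 0.138). The call for Apob was lost without CA Cflar Mlkl embryo 1 or 2 or CA Mlkl embryo 3 (adjusted p up to 0.0589). Without CA Cflar Mlkl embryo 3 the values moved away from 0, to -2.39 for Apob, -3.38 for Apoc3, -2.76 for Apoa4 and -2.54 for Apoa1, and Cd36 passed the adjusted p at -0.66 (edgeR adjusted p = 0.00395). The call for Mttp was lost without embryo 1 or 2 of CA Cflar Mlkl or 1 or 3 of CA Mlkl, with log2 fold changes down to -0.82. With raw library totals, and with library sizes set by the markers of all epithelial cells, the calls for Mttp and Mogat2 were lost. Of the enterocyte markers, 8 of 12 were called lower. Hepatocyte markers were at 26.9 to 139.8 RPKM against 343 to 456, with 2 of 10 called higher and 2 lower, and smooth muscle markers at 3335 to 4129 RPKM against 1759 to 2470.1, with 1 of 8 called higher. The part of these markers in the result was not tested. Under the scaling to enterocyte markers, Mttp turned to 0.26 and Mogat2 to 0.24, and 3 genes were called lower. In 9 genes the groups did not overlap, against 19.3% of all genes. This comparison shares its libraries with those against the controls.

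Caspase-1 loss raised these genes in the C362A set too. In CA Mlkl Casp1 intestines, 9 of the 10 genes were called higher than in CA Mlkl intestines, against 5.6% of all genes. The lowest caspase-1-deficient embryo lay above the highest caspase-1-sufficient one for each of the 10, as it did for 27.8% of all genes. Fabp1 measured 4430.5, 5314 and 5839.5 RPKM, a log2 fold change of 2.81 (SE 0.277, edgeR adjusted p = 4.40e-06). Fabp2 measured 6912, 9051 and 9551 RPKM, at 2.33 (SE 0.355, adjusted p = 0.000212). Apob was the exception, at 96.9, 85.7 and 92.4 RPKM and 0.31 (95% interval -0.42 to 1.04, edgeR adjusted p = 0.556). Enterocyte markers were at 4466 to 4537 RPKM against 1934 to 2345, with 7 of 12 called higher, and hepatocyte markers at 594 to 1085 RPKM against 343 to 456, with 2 of 10 called higher. Sums of macrophage and fibroblast markers were lower without overlap, each with 1 of 8 called lower, as were those of enteric neurons and glia, with none called. Their part in the rise was not tested. Scaled to the enterocyte markers, 2 of the 10 genes were called. That scaling shifts all genes, with Apoa1 going from 1.36 to 0.31, and the share of all genes called under it is not given here.

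Against Mlkl-/- controls, Apoa1 was higher in CA Mlkl Casp1 intestines and no gene was called lower. Apoa1 measured 16363, 20844 and 19024 RPKM, and its log2 fold change was 1.03 (SE 0.374, edgeR adjusted p = 0.0436), while 6.79% of all genes were called higher and 3.73% lower. This call was lost when any 1 of the 6 embryos was left out (adjusted p from 0.0518 to 0.155), although the groups did not overlap. They did not overlap for 1 further gene that was higher and 5 that were lower, against 26.8% and 24.2% of all genes. Apob was -0.97 (95% interval -1.71 to -0.23, edgeR adjusted p = 0.0575), with all 3 embryos below the controls. Cd36 (-0.73, adjusted p = 0.00526) and Mogat2 (-0.41, adjusted p = 0.0425) passed the edgeR adjusted p alone, as did 36% of all genes. With library sizes set by the markers of all epithelial cells, no gene was called higher and Apob (-1.47), Fabp1 (-1.14) and Cd36 (-1.24) were called lower. Enterocyte markers were at 4466 to 4537 RPKM against 2644 to 3204 in controls, with 2 of 12 called higher, markers of all epithelial cells at 3169 to 3324 RPKM against 2100.2 to 2386, with none of 12 called, and macrophage markers at 274 to 306 RPKM against 159 to 190.04, with 1 of 8 called lower. Markers of enteric neurons and glia were at 18.54 to 26.5 RPKM against 34.1 to 55.5, with 5 of 8 called lower. What part these markers had in the result was not tested.

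The difference between the alleles was tested directly, in a fit of all 30 intestine libraries. The effect of Casp8 1xDA/1xDA with Cflar loss minus that of Casp8 C362A/C362A with Cflar loss was called for Fabp1, at -1.69 (SE 0.301, edgeR adjusted p = 0.0180), while 0.0662% of 19643 genes were called lower. The call was lost without embryo 1 or 2 of either group of controls or of DA Cflar Mlkl, with Fabp1 adjusted p values from 0.0508 to 0.0965, and when scaled to the enterocyte markers (adjusted p = 0.0940). Apoc3 was -1.64 (95% interval -2.59 to -0.69, adjusted p = 0.0837) and Fabp2 -1.43 (-2.17 to -0.68, adjusted p = 0.0757), neither of them called. Both were called without the third C362A control, at -1.93 and -1.69, and with no filter on low counts, at -1.63 and -1.41. Without the third CA Cflar Mlkl embryo they moved toward 0, to -0.85 (adjusted p = 0.134) for Apoc3 and -0.91 (adjusted p = 0.0517) for Fabp2. The other 7 genes had differences from -1.19 (Apoa4, -2.11 to -0.27) to 0.37 (Cd36, -0.13 to 0.87) and were not called. Without the third CA Cflar Mlkl embryo Apoa4 went to -0.48 and Apoa1 from -0.72 to -0.07, and Apob was called at 1.04, while Fabp1 kept its call at -1.61. The sets have separate controls, so a difference between the sets cannot be told apart from that between the alleles.

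The effect of caspase-1 loss was larger in DA Cflar Mlkl than in CA Mlkl intestines for 7 of the 10 genes, against 4.9% of all genes. The backgrounds also differ in Cflar, which was present in the second, and the first started from lower levels. The difference was 3.85 (SE 0.308, edgeR adjusted p = 3.46e-08) for Fabp1, 2.52 (SE 0.488, adjusted p = 0.00130) for Apoc3 and 2.35 (SE 0.382, adjusted p = 0.000296) for Fabp2 on the log2 scale. Apoa4 (2.12), Apob (1.70), Mttp (1.06) and Mogat2 (1.04) were also called. Mttp and Mogat2 were close to the threshold and lost the call without embryo 3 of DA Cflar Mlkl, embryo 2 of DA Cflar Mlkl Casp1 or embryo 3 of CA Mlkl, and Mogat2 also without CA Mlkl embryo 1, at 0.86 or more for Mogat2 and 0.95 or more for Mttp. Scaled to the enterocyte markers, 5 of the 7 calls remained, and Mttp (0.57) and Mogat2 (0.55) were lost. Cd36 was -0.19 (95% interval -0.69 to 0.31), Dgat1 0.49 (0.15 to 0.83) and Apoa1 1.15 (0.31 to 1.99), none of them called. Apoa1 was called at 1.45 without embryo 1 of DA Cflar Mlkl.

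**Figure D5:**
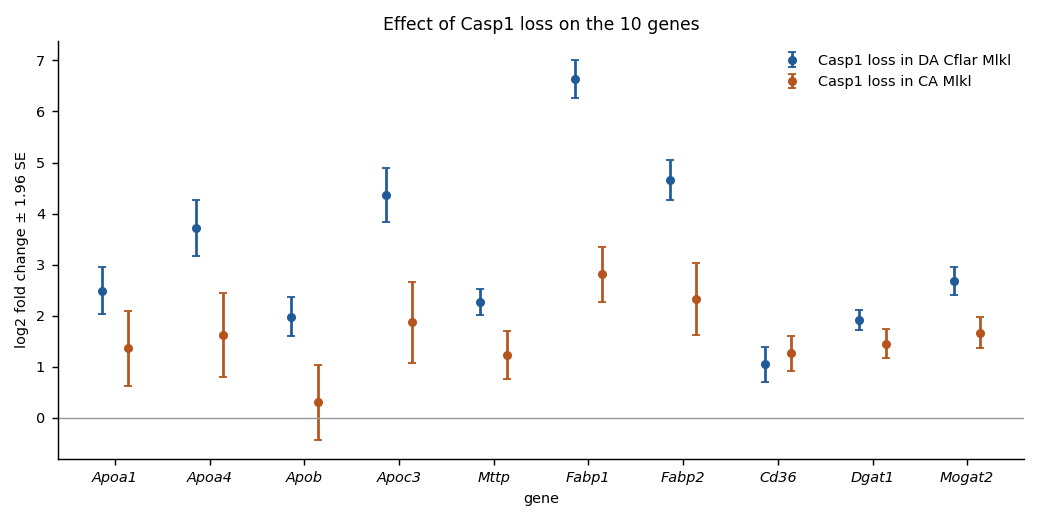
Log2 fold change of the 10 genes on loss of Casp1 in DA Cflar Mlkl (blue) and in CA Mlkl (orange). Points are edgeR estimates from 3 embryos against 3, and bars are 95% intervals. Fabp1 rises by 6.63 in the first and 2.81 in the second, while Cd36 rises by 1.05 and 1.27.

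MEFs expressed little of this program. Apoa4, Apoc3, Fabp1 and Fabp2 had no read in any of the 6 libraries, where a count of 0 allows up to 3 reads per library, or at most 0.0781 RPKM of Apoa4 and 0.256 RPKM of Fabp1 for counting error alone. Apoa1 had 1 read in total in Mlkl-/- MEFs and 5 in DA Cflar Mlkl MEFs, and Apob had 7 and 28. The other 4 genes could be tested. Mttp measured 1.72, 1.51 and 1.47 RPKM in Mlkl-/- MEFs and 1.22, 1.84 and 1.41 RPKM in DA Cflar Mlkl MEFs. The log2 fold change was -0.07 (95% interval -0.42 to 0.27). Dgat1 measured 7.70, 8.43 and 7.99 RPKM and 8.09, 9.69 and 8.47 RPKM, with 0.12 (-0.08 to 0.33). The groups overlapped for both, as they did for Cd36 (-0.24, -0.90 to 0.43) and Mogat2 (0.01, -0.63 to 0.64). None of the 4 was called by edgeR, limma-voom or DESeq2 or had an unadjusted p under 0.05 in edgeR, against 0.0711% of 15465 genes called and 6.47% with such a p.

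Other genes of fat handling were counted by list in DA Cflar Mlkl against Mlkl-/- intestines, where 9.4% of all genes were called higher and 12.8% lower. Of 9 genes tested in a list of other apolipoproteins, which also holds the gene of an RNA-editing enzyme, 6 were called lower and 1 higher. Their median log2 fold change was -2.40. Apom, which carries sphingosine-1-phosphate on lipoproteins, went from 8.21 to 0.410 mean RPKM, and Apoc2, the activator of lipoprotein lipase, from 1.24 to 0.0871. Apod was the one that rose, from 0.235 to 6.04 mean RPKM. Of 17 genes of chylomicron assembly and transport, many of them general parts of the secretory pathway, 6 were called lower and none higher, with a median of -0.64. Cidec, a lipid droplet protein, went from 70.6 to 7.55 mean RPKM and Tm6sf2, needed to lipidate Apob particles, from 152 to 25.0.

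Most called genes of the uptake and synthesis lists were lower too. Of 14 genes of fatty acid and monoglyceride uptake and activation, 8 were called lower and 1 higher, with a median of -1.46. Slc27a2, a very-long-chain acyl-CoA synthetase, went from 2.28 to 0.0936 mean RPKM and Fabp6, the ileal bile acid binding protein, from 74.5 to 7.82, while the acyl-CoA synthetase gene Acsl4 rose from 3.23 to 7.08. Of 14 genes in a list of triglyceride and cholesteryl ester synthesis, which also holds lipase genes, 5 were called lower and none higher. Their median was -0.57. Dgat2, whose enzyme does the same step as Dgat1, went from 725 to 53.0 mean RPKM and Soat2, which makes cholesteryl esters, from 38.3 to 7.79. Fatty acid oxidation and ketogenesis had the largest share, with 15 of 17 called lower and none higher and a median of -1.26. Cyp4a10 was at 0.289 mean RPKM in controls and had no read in the 3 mutants.

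Among 23 regulators of intestinal lipid genes, 11 were called lower and 2 higher, with a median of -0.97. Creb3l3, a transcription factor that induces apolipoprotein genes, went from 299.6 to 24.1 mean RPKM and Ppara, the fatty acid receptor that induces oxidation, from 4.72 to 1.35. Pparg rose from 7.57 to 21.0 and Klf5, a factor of proliferating crypt cells, from 34.2 to 72.1. Of the genes of plasma lipolysis and lipoprotein uptake, 3 of 13 were called higher and 2 lower, with a median of 0.43. Their summed RPKM was 103 to 129.9 in mutants against 147 to 161 in controls. Vldlr and Lipg rose from 1.37 to 4.29 and from 2.43 to 5.60 mean RPKM. Abcg5 and Abcg8, which form the sterol exporter of the enterocyte brush border, went from 29.3 to 3.99 and from 27.1 to 1.86. These lists were drawn up with earlier results of these data known, and their counts describe the lists only.

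The same lists were counted in the other genotypes, and genes are named there by the list that holds them. On caspase-1 loss from DA Cflar Mlkl intestines, 7 of the uptake genes, 7 of the regulators, 6 of the oxidation genes, 5 of the assembly genes and 3 of the synthesis genes were called higher, and 1 regulator was called lower, where 8.88% of all genes were called higher and 4.51% lower. The other apolipoproteins had 3 higher and 1 lower, and the genes of plasma lipolysis and uptake 3 and 2. In CA Cflar Mlkl intestines, 14 oxidation genes, 10 regulators, 8 uptake genes, 7 assembly genes, 5 synthesis genes, 4 other apolipoproteins and 2 genes of plasma lipolysis and uptake were called lower, where 11.2% of all genes were. In the same order 0, 1, 2, 0, 0, 1 and 4 were called higher, where 13.4% of all genes were. Where caspase-1 and FADD were both missing, 2 oxidation genes, 1 uptake gene and 1 apolipoprotein gene were called lower and 1 oxidation gene, 1 apolipoprotein gene and 1 gene of plasma lipolysis and uptake higher, where 0.975% of all genes were lower and 2.81% higher.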

How the data were processed

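RNA from E18.5 intestines and MEFs was sequenced in 36 libraries. The authors aligned the reads to GRCm38 (mm10) with GSNAP and deposited unnormalized exonic counts of uniquely mapped reads per gene. The deposited files also hold the width of each gene, used here as its exon length, and the authors' RPKM, which was not used. The counting program and its annotation are not given in the sources used here. The members and the gene lists were chosen with earlier results of these data known. The text names all 10 members, up to 4 genes per pathway list (the 2 largest rises and 2 largest falls among called genes in DA Cflar Mlkl against control intestines) and the 5 genes most like the members across intestines. Genes named for marker lists, overlaps or targeting were chosen after their values were seen. A pathway gene that the rule would name is not reported here.

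Tests used edgeR 4.0.16 under R 4.3.3 on the counts as deposited (filterByExpr with a minimum count of 10 and total of 15, TMM, quasi-likelihood test, prior count 0.125), with all groups of a set in the same fit and Benjamini-Hochberg adjustment over all genes tested. The standard error is the log2 fold change over the square root of F, and 95% intervals are normal intervals from it. The code was checked on simulated counts with known changes. RPKM was computed from the deposited counts and widths on TMM-scaled library sizes, which makes levels comparable within a set. The alternatives included limma 3.58.1 (voom) and DESeq2 1.42.0. Same-numbered replicates deviated together in every pair in 2 of 14 comparisons (r from -0.49 to 0.35 over all), so the replicate numbers were not taken as pairs. Differences between the libraries of a group exceeded Poisson noise by 5.34 to 77.2 times in 36 pairs, so none is a copy.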

Additional observations from a re-analysis of the deposited data

Results flagged for a closer look

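The effect of a genotype differed between the intestine sets for some of the 10 genes, by a test of the difference in edgeR over 30 libraries. The fall of Fabp1 was larger in Casp8 1xDA/1xDA together with Cflar loss than in Casp8 C362A/C362A together with Cflar loss, by -1.69 on the log2 scale. This call was lost without embryo 1 or 2 of either group of controls or of DA Cflar Mlkl. Loss of Casp1 raised 7 genes more in DA Cflar Mlkl than in CA Mlkl intestines, by 3.85 for Fabp1, 2.52 for Apoc3, 2.35 for Fabp2, 2.12 for Apoa4, 1.70 for Apob, 1.06 for Mttp and 1.04 for Mogat2. Mttp and Mogat2 lost the call when some single embryos were left out. Scaled to the enterocyte markers, Mttp (0.57) and Mogat2 (0.55) lost the call, as did Fabp1 for the first difference (adjusted p = 0.0940). The sets have separate controls and the backgrounds of the latter comparison also differ in Cflar, so these cannot be told apart from the allele.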

How the results depend on the processing

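Under size factors by relative log expression and limma-voom, every call of the 10 genes was kept. DESeq2, a filter at a mean of 50 reads and a prior count of 2, like raw totals and the markers of all epithelial cells, were run within sets and not on the differences between sets, and the first 3 kept every call there. With raw library totals none of the 10 genes was called on Fadd loss (0 in place of 2). In the D387A set they also lost Cd36 on Casp1 loss (0.96). In the C362A set they lost Dgat1 in CA Mlkl and Apoa1 in CA Mlkl Casp1 (0.91), where Apob (-1.10) was gained, against controls, Mttp (0.96) and Cd36 on Casp1 loss, and Mttp (-0.90) and Mogat2 on Cflar loss. The calls given without a value were just short of the fold threshold. Scaling to 12 markers of all epithelial cells gave 2 calls on Ifnar1 loss (Mogat2 gained, -1.14), 0 on Fadd loss and 3 in CA Mlkl Casp1 against controls. It lost Mttp (-0.83) and Mogat2 (-0.92) on Cflar loss and gained Apob (-1.02) in DA Cflar Mlkl Casp1 Ifnar1 against controls. With no filter on low counts CA Mlkl Casp1 had 2 calls against controls and the difference between alleles 3, Apoa1 (1.18) was gained for the difference between Casp1 effects, and Mttp (-0.99) was lost on Cflar loss, as it was with only both groups of that comparison in the fit (-0.97). By adjusted p alone, 9 genes passed in DA Cflar Mlkl Casp1, 8 with Ifnar1 loss and 2 with Fadd loss, each against controls, 2 on Ifnar1 loss and 7 on Fadd loss within the caspase-1-deficient embryos, and 3 in CA Mlkl Casp1 against controls.

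Scaling to 12 absorptive enterocyte markers, chosen after seeing the data, left 5 of 10 calls in DA Cflar Mlkl and 0 of 2 with Casp1-/-, each against controls, and 5 of 10 on Casp1 loss, with 2 on Ifnar1 loss and 0 on Fadd loss. In the C362A set it left 4 of 9 in CA Mlkl, 6 of 10 with Cflar-/- and 3 (all lower) with Casp1-/- against controls, 2 of 9 on Casp1 loss, 3 of 8 on Cflar loss, 0 for the difference between alleles, and 5 of 7 for that between Casp1 effects, without Mttp (0.57) and Mogat2 (0.55). Under it Cd36 turned to -0.44 on Casp1 loss in the D387A set, and Mttp to 0.26 and Mogat2 to 0.24 on Cflar loss. The share of all genes called under it was given for DA Cflar Mlkl against controls only. This scaling moved the median of all genes to -1.51 on Casp1 loss in the D387A set, 1.88 in CA Cflar Mlkl against controls and 1.34 on Cflar loss. The cause was not tested.

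With each library left out in turn, counts of called genes ran from 2 to 4 for DA Cflar Mlkl Casp1, 3 to 5 with Ifnar1-/-, 0 to 1 for Ifnar1 loss, 0 to 3 for Fadd loss, 9 to 10 for Casp1 loss in the D387A set, 7 to 9 for CA Mlkl, 6 to 8 for Cflar loss, 0 to 0 for CA Mlkl Casp1, 0 to 3 for the difference between alleles and 5 to 8 for that between Casp1 effects. The count stayed at 10 of 10 in DA Cflar Mlkl and CA Cflar Mlkl intestines. A fit with the replicate number as a block changed no call of the 10 genes. In MEFs 6 of the 10 genes had too few reads to test, 4 of them with 0 in every library, at totals of 20927014 to 32307629 reads on genes per library, a range that overlaps that of the D387A intestines. Depth limits these 4 to the floor of 3 reads.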

Other observations

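Across the 30 intestine libraries, each expressed as log2 CPM minus the mean of its own controls, the 5 genes outside the list whose profile was most like the median of the 10 genes were Pdzk1 (Pearson r 0.987), Plekhg6 (0.986), Tdrp (0.986), Tnfsf13os (0.986) and Tmie (0.985). Pdzk1 encodes a scaffold protein of brush border membranes. The 10 genes themselves had r from 0.853 (Cd36) to 0.978 (Fabp2) with that median, which they enter. Of 18186 other genes, 483 (2.66%) had r above 0.9, and the median r was -0.05. Among the 45 pairs of the 10 genes r ran from 0.628 to 0.990, with a median of 0.917. The libraries share their sets, controls and the contrast between genotypes, so r is a description of these libraries.

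The ratio of Fabp1 to Fabp2 RPKM, near 1 in D387A controls, was 1.35, 1.65 and 0.907 in the 3 DA Cflar Mlkl Casp1 intestines, of which the first and second were above every control (0.985 to 1.08). It was 0.806 to 0.886 with Fadd-/- in addition, 0.485 to 0.710 in DA Cflar Mlkl Casp1 Ifnar1 intestines, 0.373 to 0.467 in CA Mlkl intestines, 0.311 to 0.798 in CA Cflar Mlkl intestines and 0.587 to 0.641 in CA Mlkl Casp1 intestines, against 1.10 to 1.33 in the C362A controls. The ratio of Apoc3 to Apoa1 was 0.120 to 0.144 in DA Cflar Mlkl Casp1 intestines and 0.136 to 0.148 with Fadd-/- in addition. All 6 embryos were below the 0.215 to 0.220 of the D387A controls. So were those of DA (0.196 to 0.204) and of DA Cflar Mlkl Casp1 Ifnar1 (0.0798 to 0.103). In the C362A controls the ratio was 0.136 to 0.189, which overlaps the ranges of DA Cflar Mlkl Casp1 with and without Fadd-/-.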
